A study of Rattus norvegicus with 8 samples.

Results

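Metabotropic glutamate receptors are the G protein-coupled receptors for glutamate, the main excitatory transmitter of the brain. The genes described are Grm2, Grm3, Grm4, Grm5, Grm7 and Grm8, chosen by symbol, which are 6 of the 15892 gene symbols listed for both tissues of the series. The receptors fall into groups by sequence and coupling: group I, here Grm5, couples to Gq and phospholipase C, is mostly postsynaptic and raises intracellular calcium, while group II (Grm2, Grm3) and group III (Grm4, Grm7, Grm8, with Grm6 of the retina) couple to Gi/o and lower cyclic AMP. Most group II and III receptors sit on or near axon terminals and reduce transmitter release, and Grm3 and Grm5 are also made by astrocytes.

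RNA sequencing libraries came from the hippocampus (n = 4) and the hypothalamus (n = 4) of male Sprague Dawley rats, which are outbred laboratory animals. They were 2 months old at the start and received an omega-3 fatty acid diet, named fructose and DHA in the labels, with 15% fructose in the drinking water for 6 weeks; DHA is docosahexaenoic acid. All 8 libraries carried this treatment, so neither fructose nor DHA has a comparison here, and the labelled contrast is hypothalamus against hippocampus in whole dissected tissue. Whether the libraries are from different animals is not stated in the labels, and SDs and SEs measure the spread between libraries, which may be technical.

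Levels are FPKM, fragments per kilobase of transcript and sequencing depth, multiplied to a common scale over both tissues and called scaled FPKM below. The number of fragments per library is unknown. Low values gave relative depth only: the worth of 1 fragment in hippocampus replicate 2 was 1.35 times that in hippocampus replicate 3, and in hypothalamus replicate 3 it was 1.04 times that in hypothalamus replicate 4. Among replicates 2 to 4 of a tissue, 86.7 to 92.0% of low values lay on such a ratio. For pairs with replicate 1, in both tissues, only 8.2 to 10.6% did, so its relative depth is unknown. Why replicate 1 differed was not tested. The tissues were deposited in separate tables, so levels of the tissues are set side by side and no p-value across them stands beside a receptor. A gene is called higher or lower in hypothalamus when the mean difference of log2(scaled FPKM + 1), which understates differences of low genes, is at least 1 in size, and the 4 libraries of one tissue do not overlap with the 4 of the other. Marker genes lay in the direction of the labels: 12 of 12 hypothalamus markers compared were called higher in hypothalamus and 9 of 9 pallial glutamate neuron markers lower. Of the 14 hypothalamus markers listed, Npy read 0 in all libraries and Sim1 was under the minimum mean over all libraries. Some markers passed that minimum only through the tissue where they are high, such as Avp (0.13 scaled FPKM in hippocampus) and Slc17a7 (0.50 in hypothalamus). Their calls check the labels and test nothing further. Hippocampus replicates 3 and 4 stood apart in choroid plexus genes, with Ttr (transthyretin) at 6656 and 5004 scaled FPKM against 38.9 and 37.6 in replicates 1 and 2. Without these 2 libraries the same counts of receptor genes were called, 2 higher and 1 lower. With fewer hippocampus libraries an overlap is less likely, and calls over all genes rose from 1406 to 1607 higher and from 1414 to 1545 lower. The difference of Grm5 moved from -1.29 to -1.69, that of Grm3 from -0.72 to -0.93 and that of Grm7 from 0.67 to 0.47. The equal counts thus do not show that these libraries made no difference to the receptors.

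Of the 6 receptor genes, all of which passed the minimum mean of 1 scaled FPKM, 2 were called higher in hypothalamus (Grm4 and Grm8), 1 was called lower (Grm5) and 3 were neither (Grm2, Grm3 and Grm7). Among the 10557 genes compared, 13.3% were called higher and 13.4% lower, which makes 26.7% in either direction. The libraries of the tissues did not overlap for 5 of the 6 receptor genes, whereas this held for 53.4% of all genes compared. The median difference of the 6 was 0.27 and that of all genes -0.04, and each receptor lay between the 5th and the 95th percentile of all genes, -1.70 and 1.74. With so few genes these counts do not set the family apart from other genes. The make-up of the family differed between the tissues: group III genes gave 55.1% ± 1.27 (SD, n = 4) of the summed FPKM of the 6 in hypothalamus and 26.3% ± 5.09 in hippocampus. These shares restate the differences of the single genes, and no such shares of other gene sets are given for comparison.

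The stretches upstream of the annotated start are shown for the 3 of the 6 receptor genes matched in RefSeq's table of promoters (build GRCr8), all with libraries that did not overlap between tissues: Grm5, lower in hypothalamus, and Grm7 and Grm8, which were on the other side. Each is the 250 bases before the start, 5′ to 3′ on the gene's strand, with GC boxes (GGGCGG, either strand, matches may overlap) in capitals.
Grm5, chr1:150733503-150733752, plus strand: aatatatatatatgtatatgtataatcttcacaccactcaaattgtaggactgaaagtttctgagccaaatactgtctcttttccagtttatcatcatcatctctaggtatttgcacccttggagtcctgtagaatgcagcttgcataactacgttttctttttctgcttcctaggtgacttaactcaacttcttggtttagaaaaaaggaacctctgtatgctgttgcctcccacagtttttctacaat
Grm7, chr4:145286476-145286725, plus strand: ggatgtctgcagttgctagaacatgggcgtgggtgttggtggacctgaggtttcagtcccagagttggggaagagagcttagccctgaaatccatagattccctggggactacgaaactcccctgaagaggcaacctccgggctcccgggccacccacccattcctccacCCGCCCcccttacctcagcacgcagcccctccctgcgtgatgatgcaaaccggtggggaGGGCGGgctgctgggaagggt
Grm8, chr4:57687507-57687756, minus strand: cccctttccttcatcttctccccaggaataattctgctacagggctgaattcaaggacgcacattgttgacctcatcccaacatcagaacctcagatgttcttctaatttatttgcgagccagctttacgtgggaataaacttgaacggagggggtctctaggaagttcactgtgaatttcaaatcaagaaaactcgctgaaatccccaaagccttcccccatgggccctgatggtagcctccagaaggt
The Grm7 stretch was 62.0% G or C, with 9 CG dinucleotides and 2 GC boxes. The Grm8 stretch was 47.2% G or C with 5 CG dinucleotides, and that of Grm5 36.4% with 1, and the letters of the GC box were in neither window. Over the 33469 promoters of the table the median was 51.2% G or C and 5 CG dinucleotides, and 30.5% held a GC box. The genes that lay on the same side, Grm7 and Grm8, thus differed from each other in base composition.

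Grm5, the group I receptor that signals through Gq and is tied to the Homer and Shank scaffold of the postsynaptic density, was lower in hypothalamus. Hippocampus replicates 1 to 4 held 21.2, 37.1, 18.8 and 14.0 scaled FPKM. Hypothalamus replicates 1 to 4 held 12.6, 6.76, 7.13 and 7.18. Replicate 2 of hippocampus was the highest library, hypothalamus replicate 1 stood above the other 3 of its tissue, and the gap between the tissues was narrow, between 14.0 and 12.6. The means were 22.8 ± 9.996 (SD, n = 4) in hippocampus and 8.41 ± 2.78 in hypothalamus, a log2 difference of -1.29 ± 0.34 (SE). As deposited, without the common scale, hippocampus replicate 4 at 13.2 FPKM lay below hypothalamus replicate 1 at 14.0 FPKM, the libraries overlapped, and the call was lost at a difference of -1.07; upper-quartile scaling lost it too, at -1.18.

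Grm3, the group II receptor found on astrocytes as well as neurons and activated also by the peptide transmitter N-acetylaspartylglutamate (NAAG), was not called. Hippocampus replicates 1 to 4 held 19.6, 28.8, 19.0 and 17.1 scaled FPKM. Hypothalamus replicates held 10.3, 11.97, 13.2 and 13.5. Each hippocampus library lay above each hypothalamus library, but the difference of -0.72 ± 0.18 was under the limit of 1. Its mean was 21.1 ± 5.24 in hippocampus and 12.2 ± 1.44 in hypothalamus (SD, n = 4 each).

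Grm2, a group II autoreceptor of glutamate terminals, overlapped between the tissues and was not called. It held 12.7, 7.49, 8.74 and 10.8 scaled FPKM in hippocampus replicates 1 to 4. In hypothalamus it held 5.89, 10.5, 10.1 and 9.41. The ranges overlapped from 7.49 to 10.5, with hypothalamus replicate 1 the lowest of all 8, and the difference was -0.14 ± 0.23. It was 0.07 with values as deposited, 0.03 without hypothalamus replicate 1 and 0.14 without replicate 1 of both tissues, so its direction depended on the scaling and on the libraries used.

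The group III genes were all on the side of hypothalamus. Grm4, a presynaptic receptor of glutamate and GABA terminals best known from the cerebellum, held 6.65, 1.75, 3.99 and 4.01 scaled FPKM in hippocampus replicates 1 to 4. In hypothalamus it held 7.20, 10.5, 11.6 and 12.5. The tissues did not overlap, and replicate 1 of each tissue lay closest to the other tissue. Means were 4.10 ± 2.00 in hippocampus and 10.5 ± 2.31 in hypothalamus (SD, n = 4), a difference of 1.23 ± 0.34 (SE). Without hippocampus replicate 2, the lowest library, the difference was 0.96 and the call was lost.

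Grm8, a presynaptic receptor with a high affinity for glutamate, was at a low level in hippocampus. It held 2.55, 2.46, 2.45 and 3.59 scaled FPKM there, and 7.14, 5.84, 6.65 and 6.996 in hypothalamus. The tissues lay well apart and the libraries of each stood close together, hippocampus replicate 4 excepted. The means of 2.76 ± 0.55 and 6.66 ± 0.58 (SD, n = 4) gave a difference of 1.03 ± 0.11, the smallest SE of the 6. This value lay just over the limit of 1, and it fell to 0.995 without hippocampus replicate 2, to 0.990 without hippocampus replicate 3 and to 0.976 without replicate 1 of both tissues.

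Grm7, the group III receptor of the presynaptic release zone, with a low affinity for glutamate, had the highest level of the 6 in hypothalamus. Its values there were 23.6, 17.7, 18.7 and 17.3 scaled FPKM. In hippocampus replicates 1 to 4 they were 13.9, 13.0, 10.5 and 9.72. Each hypothalamus library lay above each hippocampus library, yet the difference of 0.67 ± 0.15 was under the limit, and it was 0.89 with values as deposited. Grm6, the group III receptor of retinal bipolar cells and no member of the set, was at 0.71 to 1.55 scaled FPKM in hippocampus and 0.19 to 0.59 in hypothalamus, under the minimum mean of 1 over all libraries, and was not compared.

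**Figure D1:**
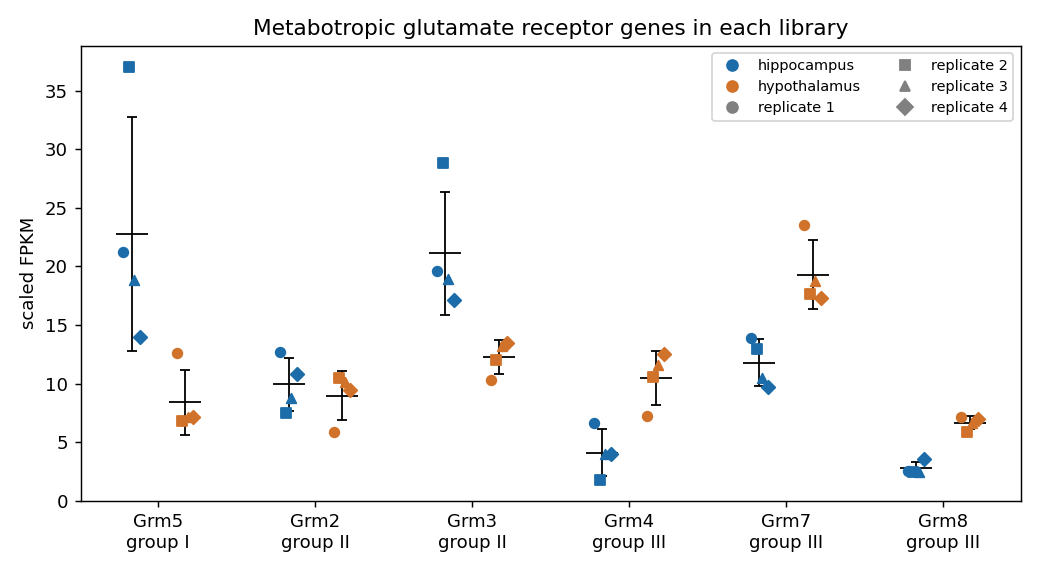
Scaled FPKM of the 6 receptor genes in each library, hippocampus in blue and hypothalamus in orange, with the marker shape giving the replicate; lines and bars are the mean and SD of 4 libraries. Grm5 and Grm3 lie higher in hippocampus, Grm4, Grm7 and Grm8 higher in hypothalamus, and Grm2 overlaps.

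FPKM are per length, so levels of the 6 can be ordered within a tissue. In hippocampus the order by mean was Grm5 (22.8), Grm3 (21.1), Grm7 (11.8), Grm2 (9.93), Grm4 (4.10) and Grm8 (2.76 scaled FPKM). Grm5 and Grm3 kept no order, with Grm5 above in 2 of 4 libraries, and the pairs Grm7 and Grm2 and Grm4 and Grm8 kept their order in 3 of 4. Ranges did not overlap at 2 steps, from Grm3 to Grm7 and from Grm2 to Grm4, so that the genes fell into a high, a middle and a low pair. In hypothalamus the order was Grm7 (19.3), Grm3 (12.2), Grm4 (10.5), Grm2 (8.97), Grm5 (8.41) and Grm8 (6.66), and only the first step, Grm7 above Grm3, had ranges apart. Grm2 was above Grm5 in 3 of 4 hypothalamus libraries, the other being replicate 1, and the other neighbours kept their order in all 4. With 4 libraries no exact test of a pair can reach a p of 0.05, and none was run.

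Shares within a library do not depend on a factor for that library. Group III genes (Grm4, Grm7 and Grm8) made up 30.2, 19.0, 26.7 and 29.2% of the summed FPKM of the 6 in hippocampus replicates 1 to 4. In hypothalamus they made up 56.9, 53.8, 54.9 and 55.0%. The hypothalamus libraries lay within a few percentage points of each other and well above each hippocampus library.

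Group I, here Grm5 alone, went the other way, with 27.7, 40.9, 29.7 and 23.6% in hippocampus and 18.8, 10.7, 10.6 and 10.7% in hypothalamus. Group II genes (Grm2 and Grm3) held 40.1 to 47.2% in hippocampus and 24.3 to 35.5% in hypothalamus, and within this group the share of Grm3 did not overlap between the tissues (25.6 to 31.8% against 15.5 to 20.2%) while that of Grm2 did (8.27 to 18.3% against 8.83 to 16.6%). The Grm7 to Grm5 ratio was 0.350 to 0.696 in hippocampus and 1.88 to 2.63 in hypothalamus, so Grm5 exceeded Grm7 in each hippocampus library and Grm7 exceeded Grm5 in each hypothalamus library. The summed level of the 6 overlapped between tissues, at 59.2 to 90.5 scaled FPKM in hippocampus and 63.3 to 67.4 in hypothalamus. The mean sum was 72.5 ± 14.2 in hippocampus and 66.0 ± 1.87 in hypothalamus after scaling and 66.6 ± 11.6 and 71.7 ± 2.91 FPKM as deposited, so its direction turned with the scaling.

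**Figure D2:**
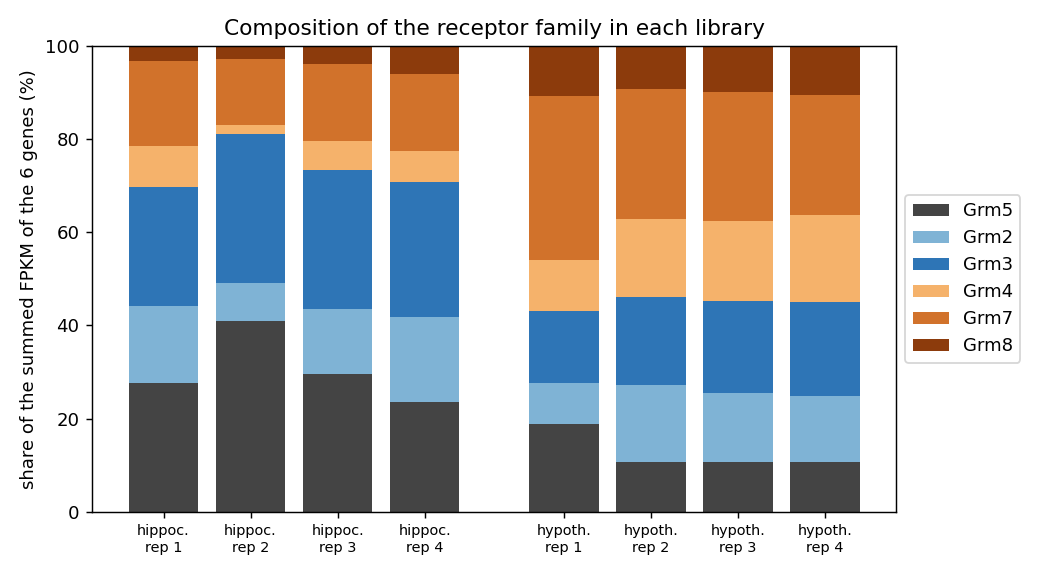
Share in percent of each receptor gene in the summed FPKM of the 6, one bar per library, with group I in grey, group II in blues and group III in oranges. The orange part is 19.0 to 30.2% in hippocampus and 53.8 to 56.9% in hypothalamus.

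Libraries of 1 tissue differed more in some receptors than in others. Grm5 and Grm4 had the widest spread in hippocampus, with coefficients of variation of 42.4 and 46.9% on values as deposited, and Grm7 the narrowest at 13.9%. In hippocampus replicate 2, Grm5 was 0.77 and Grm3 0.46 above the mean of the tissue on the log2 scale, while Grm4 stood at -0.80 and Grm2 at -0.34. Hypothalamus replicate 1 had Grm5 0.57 and Grm7 0.29 above its mean, with Grm2 at -0.51 and Grm4 at -0.46. Grm5 was thus high, and Grm2 and Grm4 low, in both of these libraries. Over all genes compared, the deviations of these libraries correlated at 0.20, weak but the highest of any pair across the tissues. Hippocampus replicate 2 and hypothalamus replicate 4 correlated at -0.20, as strongly with the opposite sign. Whether the likeness reached beyond the receptors was therefore not settled. Hypothalamus replicate 1 also had the lowest summed level of pallial glutamate neuron markers of its tissue, 166 against 285 to 301 scaled FPKM in the others, of neuron markers, 1436 against 1547 to 1747, and of astrocyte markers, 3015 against 3418 to 3741. It was lowest as well in hypothalamus, oligodendrocyte, microglia, endothelial and mural, and striatum and thalamus markers. GABA neuron markers and ependymal and choroid plexus markers were the exceptions. Across genes it correlated at 0.952 to 0.959 with the other libraries of its tissue, which correlated at 0.985 to 0.989 among themselves. Hippocampus replicate 2 had the highest sum of neuron markers in its tissue, 2993 against 2474 to 2633. The part of these in the receptor values was not tested.

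**Figure D3:**
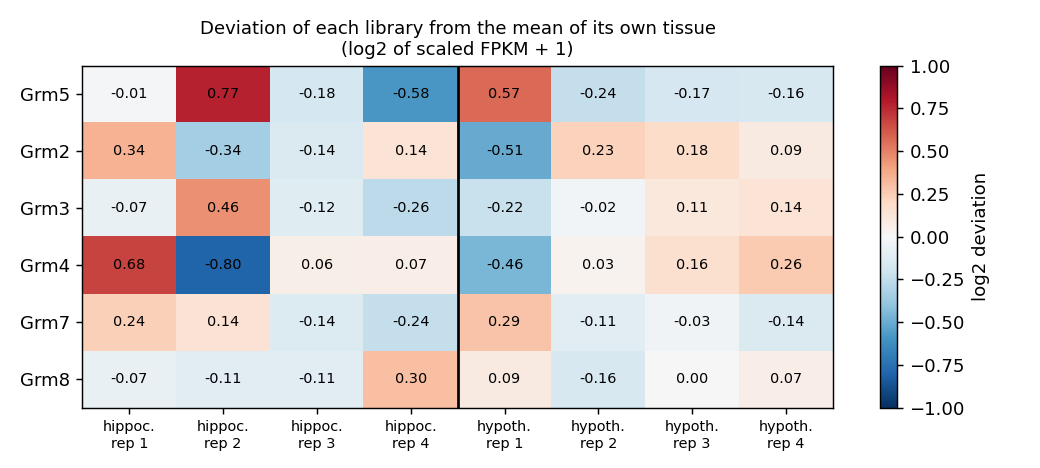
Deviation of each library from the mean of its own tissue on the scale of log2(scaled FPKM + 1), one row per receptor gene and one column per library, red above and blue below the mean. Grm5 stands at 0.77 in hippocampus replicate 2 and 0.57 in hypothalamus replicate 1, where Grm4 stands at -0.80 and -0.46.

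For each receptor the genes with the most similar profile over the 8 libraries were sought, by the root mean square difference (RMS) of log2 levels after each gene's own mean was taken off. Ppp4r4, a regulatory subunit gene of protein phosphatase 4, was closest to Grm5 (RMS 0.11), at 6.47 ± 3.02 scaled FPKM in hippocampus and 1.94 ± 0.72 in hypothalamus, followed by Mal2 (0.11), a gene of membrane transport. Ppm1h and Zbtb38 (0.099 each) were closest to Grm3, and Abcb8 (0.076) and Mllt1 (0.089) to Grm2. For Grm4 they were Samd14 (0.14) and Adprh (0.15), for Grm7 Pnma3 (0.069) and Pex19 (0.078), and for Grm8 Dleu7 (0.071) and Nup43 (0.093). Grm4 and Grm5, with the widest spread, had the most distant nearest genes. No receptor was among these nearest genes of another: the closest pair in the family, Grm7 and Grm8, was 0.32 apart.

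The genes that carry the group I signal were mostly lower in hypothalamus, as Grm5 was. Of 21 compared, 16 were called lower, 1 higher and 4 neither, and the median difference was -1.45. Over all genes compared 13.4% were called lower and 13.3% higher, and the counts of the lists below are to be read beside these shares too. The lists were chosen with earlier results of these data known. Homer1, the scaffold protein that binds the tail of group I receptors, held 28.7 to 59.8 scaled FPKM in hippocampus and 2.83 to 5.77 in hypothalamus, a difference of -3.10 ± 0.29. Prkcb, a protein kinase C of the same pathway, was at 223 ± 40.5 in hippocampus and 23.6 ± 1.40 in hypothalamus (-3.17 ± 0.14). Dgkz, which removes the diacylglycerol that phospholipase C makes, was at 406 ± 80.2 against 54.7 ± 15.6, and Ncdn (neurochondrin, or norbin, a binding partner of Grm5) at 619 ± 168 against 231 ± 32.0. The gene called higher, Plcb4, a phospholipase C beta, was chosen after its values were seen. It held 2.94 to 5.20 scaled FPKM in hippocampus and 11.6 to 12.5 in hypothalamus. Prkcb, like Adcy1, Gnao1, Nat8l, Naaladl1, Slc13a3, Arc, Cacng2, Map1b, Gria1, Grin2a, Slc17a7, Aqp4 and Slc1a2 below, was summed over several loci in at least 1 table, whereas each receptor had a single locus. Ppm1h, Pnma3 and Pex19, named above for their profiles, were sums over several loci in at least 1 table too.

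Genes of the Gi/o pathway and partners of group II and III receptors were less uniform, with 7 of 23 called lower, 1 higher and 15 neither (median -0.72). Adcy1, a calcium-stimulated adenylyl cyclase, held 83.8 to 178 scaled FPKM in hippocampus and 3.52 to 4.53 in hypothalamus, a difference of -4.55 ± 0.23. Adcy9, another cyclase, was at 28.6 ± 3.18 against 0.89 ± 0.49. Gnao1, the main Go alpha subunit of brain, was at 440 ± 19.1 in hippocampus and 146 ± 21.7 in hypothalamus, while Gnai2, a Gi alpha subunit also abundant outside neurons, was the gene called higher, at 132 ± 20.2 against 376 ± 96.6. The group III receptor genes thus lay higher in hypothalamus while most genes on this list, which groups II and III share, did not.

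Of 4 genes of NAAG turnover, 1 was called lower and 3 neither. Nat8l, which makes the precursor N-acetylaspartate, was at 72.9 ± 9.75 scaled FPKM in hippocampus and 61.9 ± 9.22 in hypothalamus and overlapped. Naaladl1, a peptidase gene, was at 8.35 ± 2.96 against 2.84 ± 0.57, and Slc13a3, a dicarboxylate carrier, at 15.5 ± 11.2 against 38.5 ± 17.3, where the libraries overlapped and the difference was 1.42. Without hippocampus replicates 3 and 4, which were high in choroid plexus genes, the call of Naaladl1 was lost, its difference going from -1.23 to -0.89, and Slc13a3 was called higher at 2.38. Slc13a3 was also called higher without hypothalamus replicate 1 (1.83), without replicate 1 of both tissues (1.55) and by limma. Of 11 genes of receptor-dependent plasticity, 3 were called lower, 1 higher and 7 neither. Arc, translated at dendrites after group I receptor activation, was at 55.1 ± 21.8 against 4.08 ± 1.25. Cacng2 (encoding stargazin, an AMPA receptor partner) was higher in hypothalamus at 39.7 ± 10.3 against 5.25 ± 0.61. Map1b (224 ± 101 against 143 ± 8.67) and Stau2 (112 ± 11.8 against 75.5 ± 8.13), the most abundant of that list, were not called, and Map1b carried status flags in hippocampus.

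Ionotropic receptor genes, which form glutamate-gated channels, were called lower for 4 of 15, higher for 2 and neither for 9, with a median difference of -0.34 against 0.27 for the 6 metabotropic genes; the difference between the families was not tested. Grin2a, an NMDA receptor subunit, held 38.0 ± 19.0 scaled FPKM in hippocampus and 1.97 ± 0.28 in hypothalamus, a larger difference (-3.60 ± 0.35) than that of any metabotropic receptor. Gria3 was at 66.9 ± 18.1 against 8.14 ± 0.75 and Gria1, both AMPA receptor subunits, at 173 ± 68.4 against 51.1 ± 7.93; Gria1 carried status flags in hippocampus. Grin1, the obligatory NMDA subunit, was at 110 ± 27.4 and 117 ± 31.9 and overlapped.

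**Figure D4:**
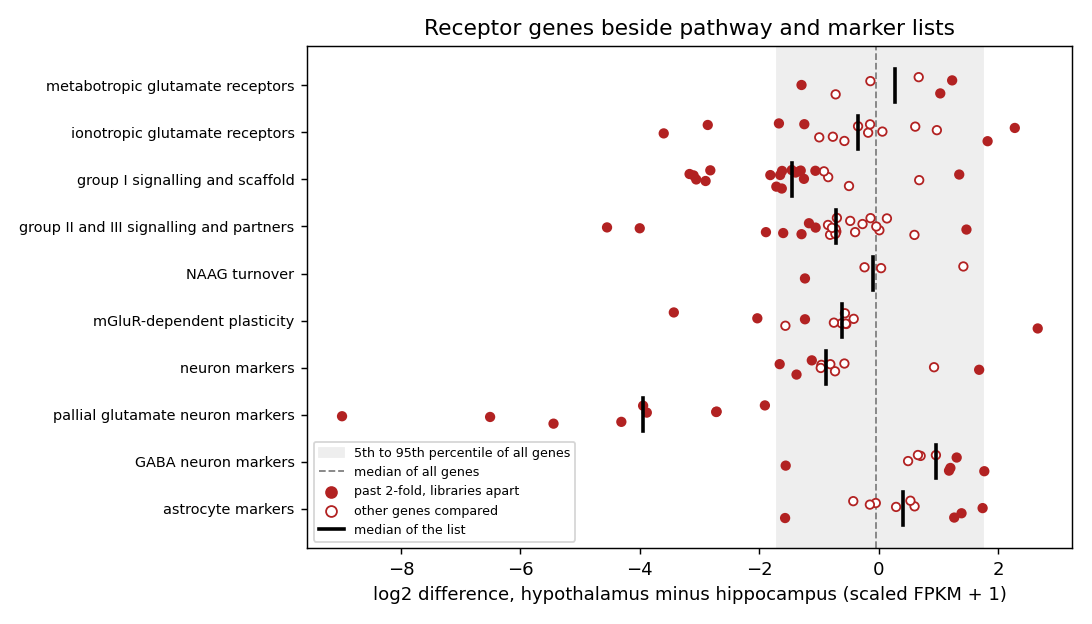
Difference between hypothalamus and hippocampus in log2(scaled FPKM + 1) for each gene of a list (points, filled where called), with the median of the list as a black line and the 5th to 95th percentile of all 10557 genes in grey. The 6 metabotropic receptors lie on both sides of 0 inside the grey band, while group I signalling genes lie mostly below 0.

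Cell type markers moved between the tissues as well, and in bulk tissue fewer cells of a type and less RNA per cell cannot be told apart. Neuron markers summed to 2474 to 2993 scaled FPKM in hippocampus and 1436 to 1747 in hypothalamus, with 3 of 10 called lower, 1 higher and 6 neither. Pallial glutamate neuron markers summed to 2913 to 4578 against 166 to 301, and Slc17a7, the vesicular glutamate transporter that defines these cells, was at 769 ± 237 against 0.50 ± 0.37, with status flags in hippocampus. GABA neuron markers summed to 390 to 617 in hippocampus and 733 to 909 in hypothalamus, with 4 of 9 called higher and 1 lower. Astrocyte markers overlapped, at 3472 to 3661 and 3015 to 3741, with 3 of 10 called higher (Aqp4, Aldh1l1 and Gjb6) and 1 lower. The marker called lower was Slc1a2, the astrocyte glutamate transporter, at 249.3 ± 25.9 in hypothalamus against 764 ± 252. The part of these markers in the receptor differences was not tested.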

How the data were processed

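Per the labels' protocols, polyadenylated RNA was sequenced on an Illumina HiSeq. The authors deposited FPKM per locus in a table for hippocampus and another for hypothalamus, with status flags. TopHat, TopHat2, Bowtie, Bowtie2, Cufflinks, Cuffdiff and the build rn5 are listed in the submitters' processing notes, and versions, options and scaling between the tables are not given there. Each receptor had 1 locus in each table and no status flag. Values of loci sharing a symbol were added, then divided by median-of-ratios factors over the 15892 shared symbols (0.889 to 1.11). Genes with a mean of at least 1 scaled FPKM were compared, with a pseudocount of 1. The 6 genes, the lists and the settings were chosen with earlier results of these data known. Genes named were the receptors, from each pathway list the 2 called genes with the largest difference and the 2 of highest level, the 2 genes most like each receptor in profile, and leading markers; 1 gene under this rule is not reported here. On simulated tables of 10557 genes the call recovered 98.0% of those changed by 1.5 on the log2 scale and called 0.106% of unchanged genes. The changed genes were drawn only from genes above a set level, and their change was larger than the difference of any receptor. The recovery rate thus does not apply to the receptors. Alternatives changed scaling, pseudocount, filter, loci and libraries, and included limma 3.58.1 in R 4.3.3; other work used Python 3.11.15 with pandas 2.3.3. RefSeq sequences are from build GRCr8, which is not that of the deposited values.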

Additional observations from a re-analysis of the deposited data

Results flagged for a closer look

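Among 38 genes named, each looked at in both tissues (76 groups of 4 libraries), 6 groups had 1 library far from the other 3, where chance gives about 1 in 20; the number is the gap to the nearest library as a share of the whole range on the log2 scale. Grm5 in hypothalamus replicate 1 stood at 12.6 scaled FPKM against 6.76 to 7.18 in the others (0.907). Grm8 in hippocampus replicate 4 stood at 3.59 against 2.45 to 2.55 (0.899). Grm6 in hypothalamus replicate 4 stood at 0.19 against 0.58 to 0.59 (0.967). The other 3 were low in hypothalamus replicate 1: Gnao1 at 113.5 against 154 to 161 (0.878), Mllt1 at 14.7 against 21.3 to 22.8 (0.847) and Samd14 at 36.4 against 59.5 to 60.8 (0.959). Mllt1 and Samd14 were named for profiles like those of Grm2 and Grm4, which were low in that library too. They are therefore no separate observations of it, and the count of 6 cannot be read against 1 in 20.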

How the results depend on the processing

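Over all genes, 1406 were called higher and 1414 lower, or 49.9% of the calls higher; values as deposited gave 1912 and 1018 (65.3%) with the median gene at 0.18, and upper-quartile scaling 1661 and 1183 (58.4%) with the median at 0.07. Of the 6 receptors, 2 were called higher; this became 1 with a filter at a mean of 5, which leaves out Grm8, 1 without replicate 1 of both tissues, and 0 to 2 when 1 library was left out (0 without hippocampus replicate 2 and 1 without replicate 3). The 1 receptor called lower, Grm5, became 0 with values as deposited and with upper-quartile scaling. Whether replicate numbers pair the libraries is not in the labels. Correlations of same-numbered deviations were -0.079 to 0.14, and 2 of 4 hippocampus libraries were closest to their own number. These values cannot decide it, as differences between libraries of other origin enter the deviations too. Limma, whose p-values cannot part tissue from table, called 2 receptors higher and 1 lower, and the fit with the replicate number as a block also 2 and 1 (1464 and 1439 over all genes). Leaving out hippocampus replicates 3 and 4 was a setting added after seeing the data. Neighbour pairs that kept their order in every hypothalamus library were 4 in all libraries and 2 to 5 when 1 was left out. The number of fragments is unknown, so no counting error can be given.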
